A study of Mus musculus with 8 samples.

Results

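The adenylyl cyclases make cyclic AMP from ATP, and 8 of their genes (Adcy1, Adcy2, Adcy3, Adcy5, Adcy6, Adcy7, Adcy8 and Adcy9) were followed here by gene symbol, 8 of the 23284 genes in the deposited counts. They were selected on their counts in these libraries, with the KO against Het differences in view, so those differences are given as a description, with no p-values. Counts of members called are set beside the share of all genes called and are not used as support. The 8 RNA libraries were made from endocrine cells of the mouse pancreas, taken at embryonic day 17 and sorted for a Tomato reporter switched on by Neurog3-Cre. In the 4 KO libraries (replicates 8, 9, 17 and 24) the labels give the genotype Neurod1floxed/floxed, and in the 4 Het libraries (replicates 6, 7, 13 and 19) Neurod1floxed/wt. All 8 also carried Neurog3Cre+ and RosaTomato+ on the strain written as C56BL/J, so the control cells had lost an allele of Neurod1 too and were not wild type. Neurog3 is switched on in the precursors of every islet cell type, so deletion and reporter reach all of them, and the sorted cells are a mixture. The labels do not say whether each library came from a separate animal or pool, so p-values measure the spread between these libraries, which may be technical.

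Hormones that raise cyclic AMP, such as GLP-1 and GIP, act through receptors coupled to the stimulatory G protein Gs, which switches the membrane-bound cyclases on, and receptors coupled to Gi switch several of them off. Cyclic AMP then acts through protein kinase A and the Epac exchange factors, and in beta cells it strengthens insulin release set off by glucose. The membrane cyclases differ in their other inputs. Those of Adcy1, Adcy3 and Adcy8 are stimulated by calcium with calmodulin, those of Adcy2 and Adcy7 by G-protein beta-gamma subunits in the presence of active Gs, those of Adcy5 and Adcy6 are inhibited by calcium, and that of Adcy9 responds poorly to the plant compound forskolin, which activates the other membrane forms.

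The libraries held 10.35 M to 16.1 M counted reads, and 15443 to 16538 genes had a read. Levels are given as CPM, counts per 1 M reads of the scaled library size. Neurod1 stood at 2.55 to 22.2 CPM in KO and at 133 to 210.5 CPM in Het. KO replicate 8 stood apart: its 12 mesenchyme markers summed to 10403 CPM against 289 to 1307 CPM in the other 7 libraries, and all 12 were highest there. Its 10 leukocyte markers summed to 556 CPM, with KO replicate 9 next at 298 CPM and the others between 22.02 and 90.0 CPM. The 14 islet endocrine markers, among them Neurod1 and the insulin genes, summed to 20387 to 38710 CPM in KO against 61250 to 85047 CPM in Het. No marker of these 3 lists was at 0 in every library. KO replicate 9 had the highest sum of 11 acinar markers, 45320 CPM against 10029 to 31411 CPM in the other libraries. In sorted pools, fewer cells of a type and less RNA per cell cannot be told apart.

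Sequence around the transcription starts is shown because Neurod1 is a basic helix-loop-helix factor, whose family binds the E-box CANNTG, and because the cyclase genes fall into starts rich and poor in CG dinucleotides. The RefSeq promoter table (GRCm38.p6, 250 bases before to 50 after a start) held 9 starts of 6 members, Adcy1, Adcy2, Adcy3, Adcy5, Adcy7 and Adcy9. It had none for Adcy6 and Adcy8. The counts were made on mm9, so these coordinates belong to the RefSeq table alone. Below are Adcy1, the member with different levels in KO and Het, Adcy5, a member with like mean levels in both and the most CG dinucleotides, and the first start of Adcy7, the member that varied most among the KO libraries. Capitals mark CANNTG on the strand of the gene (the pattern reads the same on either strand). The windows are Adcy1 at chr11:7063183-7063482 on the + strand, Adcy5 at chr16:35154614-35154913 on the + strand and Adcy7 at chr8:88282742-88283041 on the + strand.
Adcy1: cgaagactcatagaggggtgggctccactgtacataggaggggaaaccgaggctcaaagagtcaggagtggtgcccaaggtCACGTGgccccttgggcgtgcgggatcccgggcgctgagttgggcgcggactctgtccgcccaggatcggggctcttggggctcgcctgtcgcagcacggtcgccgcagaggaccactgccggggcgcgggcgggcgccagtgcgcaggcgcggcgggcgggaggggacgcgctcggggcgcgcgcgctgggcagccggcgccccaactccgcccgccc
Adcy5: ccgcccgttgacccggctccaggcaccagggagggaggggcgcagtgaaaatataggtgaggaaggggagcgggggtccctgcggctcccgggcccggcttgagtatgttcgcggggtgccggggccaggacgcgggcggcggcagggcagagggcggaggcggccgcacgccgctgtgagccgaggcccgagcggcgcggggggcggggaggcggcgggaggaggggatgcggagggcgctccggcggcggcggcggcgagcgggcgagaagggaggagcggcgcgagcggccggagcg
Adcy7: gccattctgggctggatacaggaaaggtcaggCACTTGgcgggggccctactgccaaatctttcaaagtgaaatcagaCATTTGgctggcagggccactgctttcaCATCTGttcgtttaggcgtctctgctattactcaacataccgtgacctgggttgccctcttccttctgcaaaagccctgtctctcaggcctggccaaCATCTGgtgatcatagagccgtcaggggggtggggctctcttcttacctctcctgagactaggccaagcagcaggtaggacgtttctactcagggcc
The Adcy1 window held 1 E-box, CACGTG, beginning 169 bases before the start, with 37 CG dinucleotides and a GC content of 74.0%. The Adcy5 window held none, with 44 CG dinucleotides and 79.0% GC. The Adcy7 window held 4, of which 2 read CATCTG, with 6 CG dinucleotides and 54.7% GC. Over the 9 windows 5 held CANNTG, against 72.3% of the 32817 promoter windows of the table. CAGATG or its reverse complement CATCTG, which are forms of CANNTG, stood in 3 of the 9 and in 17.2% of all windows. The 3 were a start of Adcy3 and 2 of the 3 starts of Adcy7, and not that of Adcy1. The full cyclic AMP response element TGACGTCA stood in none of the 9 and in 1.79% of all, and its part TGACG (or CGTCA on the other strand) in 2 of the 9 and 20.8% of all. A match is a run of letters and does not show binding.

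Adcy1, known best from neurons, where its enzyme couples calcium entry to cyclic AMP, was the member that set KO and Het apart. It stood at 103 CPM in KO replicate 8, 140.0 in KO replicate 9, 127 in KO replicate 17 and 160.3 in KO replicate 24. In Het it stood at 50.1 CPM in replicate 6, 32.9 in replicate 7, 34.5 in replicate 13 and 27.8 in replicate 19. The lowest KO library was thus above the highest Het library. The means were 133 ± 23.99 CPM in KO and 36.3 ± 9.60 CPM in Het (SD, n = 4 each), a log2 fold change of 1.87 (SE 0.21), or 3.65-fold. These values rest on 1413 to 1784 reads per KO library and 274 to 648 per Het library, so the error of counting reads is small beside the spread. Amplified copies count as reads, so the error of sampling RNA molecules is not known from these counts. KO replicate 8, the library rich in mesenchyme and leukocyte markers, was the lowest KO library, and without it the log2 fold change was 1.96.

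The edgeR fit covered 14116 genes, and a call means an adjusted p below 0.05. It called 1.02% of them, 0.34% higher in KO and 0.68% lower. All 8 members passed the filter on low counts, 1 was called higher (Adcy1) and none lower. At an unadjusted p under 0.05, a cut at which the share of all genes was not counted, the same fit gave 1 higher and 0 lower. DESeq2 called 1 higher and 0 lower. Adcy1 was also the 1 member whose KO and Het libraries did not overlap, as was so for 8.03% of genes tested, 3.55% with KO above Het. In the 17 other analyses, which refit the same contrast, the share of all genes called was 1.01% with median-ratio scaling, 0.907% with total counts, 0.773% with no filter and 1.28% with a filter of 2 CPM in 4 libraries. It was 3.68% by DESeq2, 1.2% by limma-voom and 3.54% with quality weights added, and 3.88% with a mesenchyme and 0.198% with a Y-linked covariate. It was 1.99, 0.319, 0.312 and 0.352% without KO replicates 8, 9, 17 and 24 and 0.332, 0.264, 0.201 and 0.462% without Het replicates 6, 7, 13 and 19. The contrast chose the members, so nothing is read from these counts. Of the 8 log2 fold changes 6 were positive and 2 negative, and the median over all genes tested was 0.03. In the authors' deposited table the fold change of Adcy1 is 3.65 and those of the other 7 members run from 0.764 to 2.68.

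**Figure D1:**
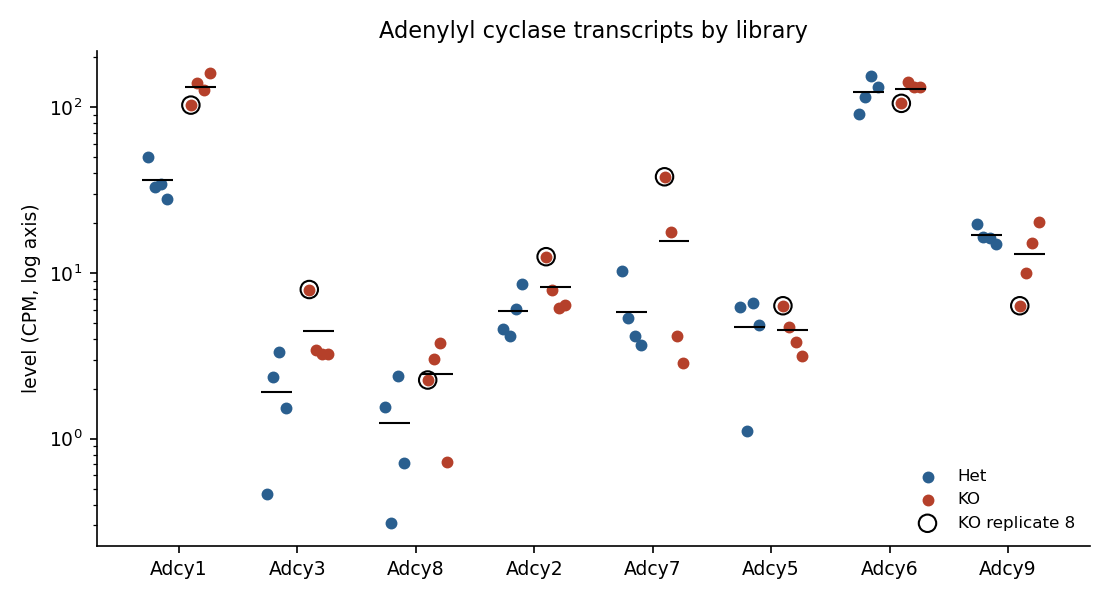
Level of each of the 8 cyclase genes in each library (CPM, log axis). Points are libraries, coloured by genotype, lines are group means, and KO replicate 8 is ringed. The 4 KO libraries lie at 103 to 160.3 CPM for Adcy1, above the 27.8 to 50.1 CPM of Het, while the groups overlap for the other 7 genes.

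The other calcium-stimulated members were low. Adcy3, whose enzyme is known from olfactory cilia and from body-weight control, stood at 7.94, 3.43, 3.24 and 3.23 CPM in KO replicates 8, 9, 17 and 24 and at 0.463, 2.35, 3.36 and 1.52 CPM in Het replicates 6, 7, 13 and 19. KO replicate 8 was far above the other 3 KO libraries, and Het replicate 13 lay within the KO range. The log2 fold change was 1.21 (SE 0.64), 0.77 without KO replicate 8 and 0.92 with summed mesenchyme markers as a covariate. In the GENCODE M21 annotation (GRCm38) 1221 exon bases of Adcy3 also belong to Cenpo, a kinetochore gene on the opposite strand. The sources used here do not state whether counting used strand, so reads of the pair may be mixed. Cenpo itself stood at 11.7 ± 3.04 CPM in KO and 8.08 ± 2.23 CPM in Het (SD, n = 4), and KO replicate 8 was its lowest KO library.

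Adcy8, whose enzyme is known to link calcium and incretin signals in rodent beta cells, was the lowest member. It held 2.26, 3.03, 3.77 and 0.719 CPM in KO replicates 8, 9, 17 and 24 and 1.54, 0.309, 2.38 and 0.710 CPM in Het replicates 6, 7, 13 and 19. High and low libraries stood in both groups, and KO replicate 24 was as low as Het replicate 19. The counts were 8 to 50 reads in KO and 5 to 27 in Het. The log2 fold change was 0.99 with an SE of 0.75.

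**Figure D2:**
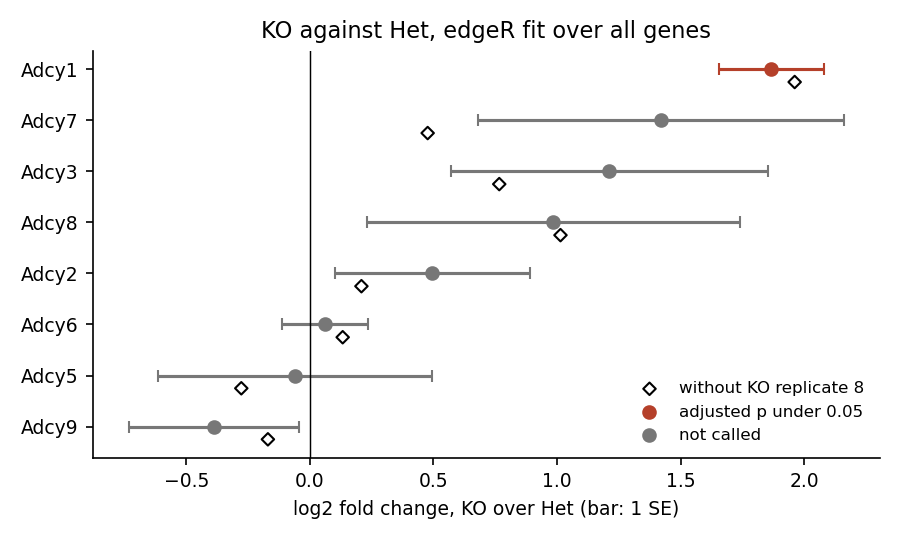
Log2 fold change of each member, KO over Het, from the edgeR fit over all genes, with bars of 1 SE. Open diamonds give the value without KO replicate 8. Adcy1 is at 1.87, and at 1.96 without that library, while Adcy7 goes from 1.42 to 0.48.

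Of the members stimulated by G-protein beta-gamma subunits, Adcy7 varied most. Adcy7, prominent in blood and immune cells, stood at 38.0 CPM in KO replicate 8 and 17.7 in KO replicate 9, but at 4.15 in KO replicate 17 and 2.88 in KO replicate 24. In Het it stood at 10.3, 5.32, 4.15 and 3.65 CPM in replicates 6, 7, 13 and 19. The KO group thus held both the 2 highest libraries and the lowest one. The 2 highest are also the 2 with the most leukocyte marker RNA (556 and 298 CPM). Ptprc, the pan-leukocyte gene CD45, stood there at 36.9 and 16.4 CPM against 0.0883 to 5.75 CPM in the other 6. Csf1r, another marker of that list, ran the other way between these 2, at 37.9 CPM in KO replicate 8 and 81.0 in KO replicate 9. KO replicates 17 and 24, with summed leukocyte markers of 22.02 and 59.6 CPM, held Adcy7 within or below the Het range. The match did not hold in all libraries. Het replicate 7 had more summed leukocyte markers (90.0 CPM) than Het replicate 6 (43.8 CPM) but less Adcy7. The log2 fold change of Adcy7 was 1.42 (SE 0.74), 0.48 without KO replicate 8 and 0.70 with the mesenchyme covariate, and the part of other cells in it was not tested.

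**Figure D3:**
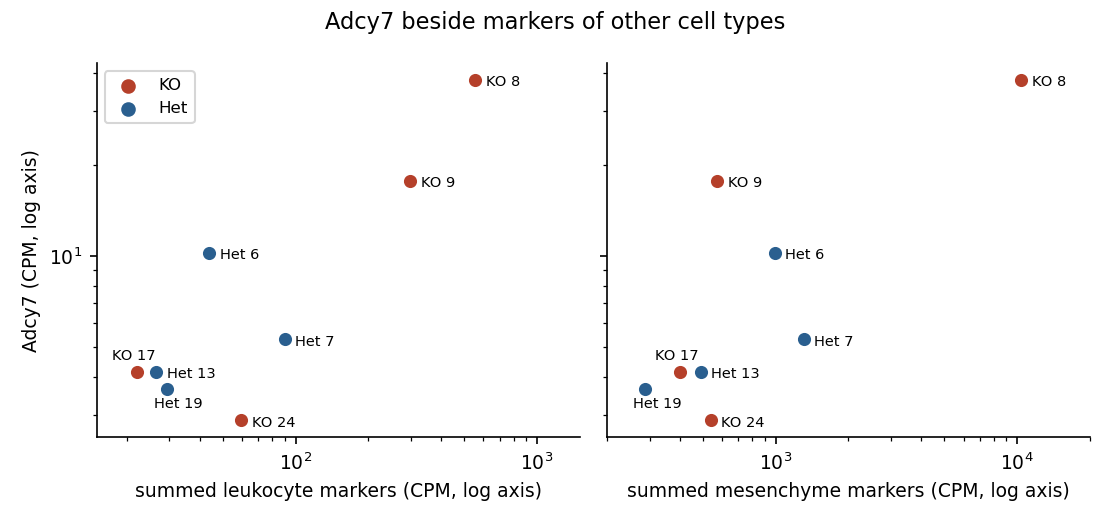
Adcy7 level in each library (CPM, log axis) against the summed level of 10 leukocyte markers (left) and 12 mesenchyme markers (right), both in CPM on log axes. KO replicates 8 and 9 lie highest for Adcy7, at 38.0 and 17.7 CPM, and highest for leukocyte markers, while KO replicate 9 is not high for mesenchyme markers.

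Adcy2, known mainly from brain, stood at 12.5, 7.90, 6.11 and 6.38 CPM in KO replicates 8, 9, 17 and 24 and at 4.56, 4.14, 6.09 and 8.62 CPM in Het replicates 6, 7, 13 and 19. KO replicate 8 was the highest library, and the other 3 KO libraries lay within the Het range. The log2 fold change was 0.49 (SE 0.39) and 0.21 without KO replicate 8. In GENCODE M21 189 of its exon bases are shared with the antisense gene Gm35161.

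The calcium-inhibited members had like means in the 2 genotypes. Adcy6, the cyclase with the most reads in Het, stood at 105.5, 142, 133 and 133 CPM in KO replicates 8, 9, 17 and 24. In Het it stood at 91.1, 115, 154 and 132 CPM in replicates 6, 7, 13 and 19, so that the Het range enclosed all KO libraries. Its log2 fold change was 0.06 with an SE of 0.18, the smallest SE among the 8 members. In GENCODE M21 605 of its exon bases are shared with the antisense gene Gm29331. Adcy5, a gene near which common variants are associated with type 2 diabetes in people, was low at 6.34, 4.71, 3.85 and 3.14 CPM in KO replicates 8, 9, 17 and 24. Het replicates 6, 13 and 19 held 6.26, 6.62 and 4.87 CPM and Het replicate 7 only 1.11 CPM. Its log2 fold change was −0.06 (SE 0.55), and its sign turned with the scaling and with which library was left out.

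Adcy9, the form least sensitive to forskolin, had a negative log2 fold change of −0.39 (SE 0.35). Its Het libraries were close together at 19.7, 16.6, 16.3 and 15.01 CPM in replicates 6, 7, 13 and 19. The KO libraries spread from 6.34 CPM in replicate 8 through 9.97 in replicate 9 and 15.1 in replicate 17 to 20.3 in replicate 24, the highest of all 8. The 2 lowest were the same libraries in which Adcy7 and the leukocyte markers were highest, and over the 8 libraries the log2 levels of Adcy9 and Adcy7 had a Pearson r of −0.84, the lowest of the 28 pairs of members. Adcy9 also ran against Adcy2 (r of −0.81) and Adcy3 (−0.68), both highest in KO replicate 8. These values describe 8 libraries, and the part of differences in cell make-up in them was not tested. Without KO replicate 8 the log2 fold change of Adcy9 was −0.17.

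Adcy4 and Adcy10 are not among the 8. Adcy4, a form of endothelium and other vessel cells, held 8.45, 1.99, 0 and 0.629 CPM in KO replicates 8, 9, 17 and 24 and 0.353 to 4.02 CPM in Het. Its log2 fold change was 0.74 (SE 1.21) with all libraries and −0.94 without KO replicate 8. Adcy10, the soluble cyclase stimulated by bicarbonate, had 0 to 10 reads per library and did not pass the filter.

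Levels of different genes were compared per kilobase of the longest protein-coding transcript in GENCODE M21 (GRCm38), which may differ from the mm9 models used for counting. On that scale Adcy6 led in Het at 20.4 ± 4.37 CPM per kb, followed by Adcy9 at 3.40 ± 0.40, Adcy1 at 2.96 ± 0.78, Adcy2 at 1.39 ± 0.48, Adcy7 at 0.983 ± 0.509, Adcy5 at 0.673 ± 0.359, Adcy3 at 0.387 ± 0.248 and Adcy8 at 0.177 ± 0.132 (SD, n = 4). Adcy6 lay clear of Adcy9 below it, and Adcy1 (2.27 to 4.08 CPM per kb) just clear of Adcy2 (0.984 to 2.05), while the Het ranges of the other 5 adjacent pairs overlapped. In KO the order was Adcy6 at 21.2 ± 2.61 CPM per kb, Adcy1 at 10.8 ± 1.96, and then Adcy7 at 2.64 ± 2.75 and Adcy9 at 2.60 ± 1.22. The place of Adcy7 rested on KO replicate 8: without it the KO mean of Adcy7 fell to 8.24 CPM from 15.7 CPM, and that of Adcy9 was 15.1 CPM instead of 12.9 CPM, which puts Adcy9 ahead. Adcy1 lay between 8.40 and 13.1 CPM per kb there, clear of Adcy6 above it (17.5 to 23.5) and of Adcy7 below it (0.483 to 6.39).

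As a share of the summed level per kb of the 8 members, Adcy1 took 15.04, 9.69, 7.91 and 7.33% in Het replicates 6, 7, 13 and 19 and 21.3, 26.2, 26.4 and 30.9% in KO replicates 8, 9, 17 and 24. The mean share was 9.99 ± 3.51% in Het and 26.2 ± 3.900% in KO (SD, n = 4). Adcy6 took 66.7 ± 7.46% in Het and 51.6 ± 5.05% in KO. The sum itself was 30.35 ± 3.899 CPM per kb in Het and 41.1 ± 2.14 CPM per kb in KO. Adcy1 has a long 3′ untranslated part, so the choice of length matters. Per kilobase of coding length, a scale chosen after seeing the data, its share was 19.7% in Het and 43.8% in KO. On that scale the KO mean of Adcy1 was 39.6 ± 7.15 CPM per kb beside 36.6 ± 4.49 for Adcy6. Their KO ranges overlapped, at 30.7 to 47.8 and 30.1 to 40.5 CPM per kb. In KO replicates 8, 9 and 17 Adcy1 held 30.7, 41.7 and 38.00 beside 30.1, 40.5 and 37.96 for Adcy6. In KO replicate 24 it held 47.8 beside 37.8. Without any length, the reads of Adcy1 for each read of Adcy6 were 0.549, 0.285, 0.225 and 0.210 in Het replicates 6, 7, 13 and 19 and 0.976, 0.987, 0.958 and 1.21 in KO replicates 8, 9, 17 and 24. That ratio is taken within a library and does not depend on scaling between libraries.

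**Figure D4:**
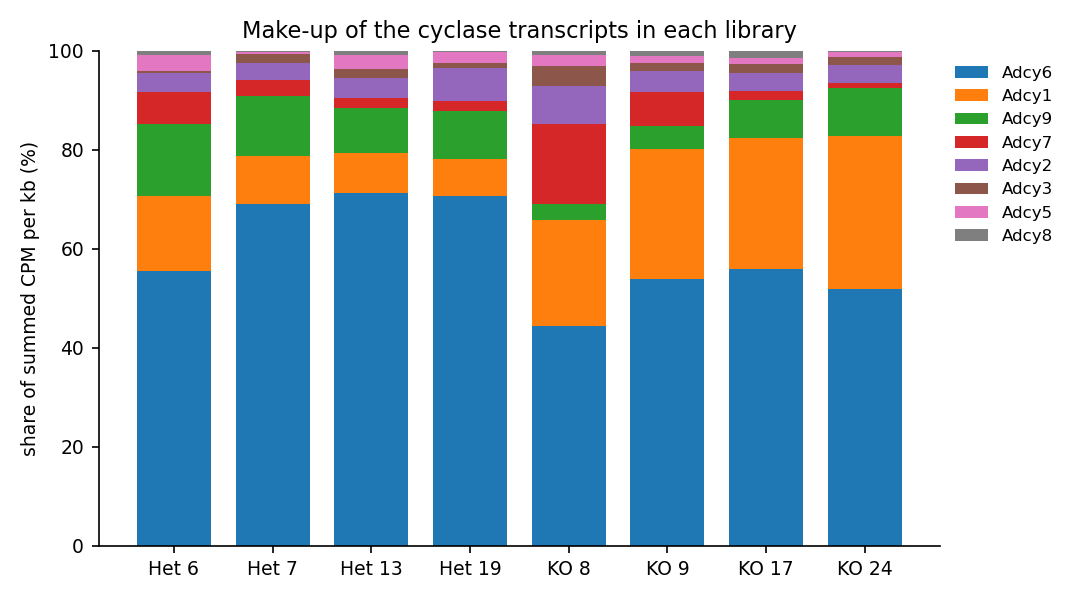
Share of each cyclase in the summed CPM per kb of transcript of the 8 members (%), 1 bar per library. The Adcy1 part is 7.33 to 15.04% in Het and 21.3 to 30.9% in KO. Adcy7 takes 16.2% in KO replicate 8.

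The genes whose levels ran closest to Adcy1 over the 8 libraries, among the 11488 tested genes whose mean level reached 5 CPM, were Slc3a2 (Pearson r of log2 CPM 0.99), a heavy chain of amino-acid transporters, Zfp867 (0.98), a zinc-finger gene, St6gal1 (0.98), a sialyltransferase, and Soat1 (0.98), which stores cholesterol as esters. They share the genotype groups with it: Soat1 stood at 366 to 464 CPM in KO and at 141 to 178 CPM in Het, and the other 3 were also higher in every KO library. The genes closest to Adcy6 were E130309D14Rik (0.98), Macf1 (0.98), Gon4l (0.97) and Mysm1 (0.96), whose KO and Het libraries overlapped. Macf1, which links actin to microtubules, stood at 428 to 581 CPM in KO and 323 to 612 CPM in Het, lowest in Het replicate 6 and highest in Het replicate 13, as Adcy6 was.

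Of 189 other genes of cyclic AMP signalling in 13 lists, 158 were tested. Of these, 6 were called lower in KO and 1 higher, where 1.02% of all genes were called. The lists were written with earlier results of these data known. Their counts and adjusted p-values are therefore a description, and no excess of calls is read from them. Their median log2 fold change was 0.11. The 7 were 2 G-protein gamma subunits, a receptor of each coupling, an inhibitor of protein kinase A and 2 regulators of G-protein signalling. All adjusted p-values here are edgeR's, over all genes tested. A covariate for Y-linked expression ended all 7 calls, at 0.0703 to 0.156, with log2 fold changes of the same sign, from −2.12 for Crhr2 to −0.84 for Rgs4 among the 6 lower and 1.51 for Rgs2.

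The one pathway gene called higher was Rgs2, whose protein speeds the shut-off of G-protein alpha subunits and is also known to inhibit some cyclases directly. It stood at 192, 113, 139 and 151 CPM in KO replicates 8, 9, 17 and 24. In Het replicates 6, 7, 13 and 19 it stood at 59.3, 61.1, 36.7 and 34.2 CPM, with no overlap. KO over Het was 1.64 on the log2 scale (SE 0.24) with an adjusted p of 0.0138, and without Het replicate 13 the adjusted p was 0.0651. Rgs4, of the same family, fell to 48.5 ± 7.25 CPM in KO, with 86.3 ± 10.1 CPM in Het (SD, n = 4 each), a log2 difference of −0.83 (SE 0.16) at an adjusted p of 0.0433. Of the 12 cyclase regulators tested these were the called members, and the median log2 fold change was −0.08. Cap1, the cyclase-associated actin protein and the regulator with the highest level, was at a log2 difference of 0.15 (SE 0.18) with an adjusted p of 0.788.

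Among 12 G-protein beta and gamma subunits, Gng12 fell to 411 ± 55.6 CPM in KO, with 873 ± 150.4 CPM in Het, a log2 difference of −1.09 (SE 0.17) at an adjusted p of 0.0165. Gng4 fell to 104 ± 22.6 CPM, with 208 ± 18.3 CPM in Het, a log2 difference of −1.001 (SE 0.17) at an adjusted p of 0.0266. The other 10 did not pass, with a log2 fold change of −0.05 for the abundant Gnb1. None of 12 alpha subunits was called. Gnas, which encodes the alpha subunit of Gs, stood at 4029, 3611, 4562 and 4559 CPM in KO replicates 8, 9, 17 and 24 and at 5948, 6101, 5357 and 6646 CPM in Het replicates 6, 7, 13 and 19. Its groups did not overlap, but the log2 fold change of −0.52 (SE 0.15) had an adjusted p of 0.170, or 0.00898 by DESeq2 and 0.0388 in quality-weighted limma-voom.

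Receptors on either side of the cyclases were mostly not called. Of 13 receptors coupled to Gs, Crhr2, a urocortin receptor, fell to 2.87 ± 1.05 CPM in KO, with 14.9 ± 3.73 CPM in Het, a log2 difference of −2.37 (SE 0.37) at an adjusted p of 0.0195. Glp1r, the GLP-1 receptor and the most abundant of them, stood at 187, 126, 234 and 337 CPM in KO replicates 8, 9, 17 and 24 and at 117, 104, 104 and 153 CPM in Het replicates 6, 7, 13 and 19. Its groups overlapped (log2 fold change 0.89, SE 0.27, adjusted p = 0.198). It was called in 3 of the 17 other analyses, with adjusted p-values of 0.0342 by DESeq2, 0.0410 in quality-weighted limma-voom and 0.0453 in edgeR with the mesenchyme covariate. Gpr119, a receptor for fatty-acid derivatives named after its value was seen, had the lowest log2 fold change of the list at −3.76 (SE 0.76) and missed the threshold at an adjusted p of 0.0505. Of 16 receptors coupled to Gi, Ffar3, a short-chain fatty acid receptor, fell to 3.87 ± 1.48 CPM in KO, with 14.97 ± 3.49 CPM in Het, a log2 difference of −1.95 (SE 0.37) at an adjusted p of 0.0403. Adra2a, the adrenergic receptor with the highest level of that list, had a log2 fold change of −0.21 (adjusted p = 0.801).

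Downstream of cyclic AMP, the 9 protein kinase A subunits and inhibitors all had log2 fold changes below 0 (median −0.16), and Pkib was called. Pkib, a peptide inhibitor of the kinase, fell to 23.2 ± 5.80 CPM in KO, with 53.2 ± 4.53 CPM in Het, a log2 difference of −1.20 (SE 0.20) at an adjusted p of 0.0272. Prkar1a, the regulatory subunit with the highest level, had −0.33 (SE 0.15, adjusted p = 0.415). The phosphodiesterases, which break cyclic nucleotides down, had no call among 17, with the smallest p for Pde10a (−1.03, adjusted p = 0.175, or 0.0409 by DESeq2 and 0.0417 in quality-weighted limma-voom) and a log2 fold change of 0.26 for Pde3b, the most abundant. Camk1d had the smallest p among 15 calmodulin genes and calmodulin-dependent enzymes (0.81, SE 0.20, adjusted p = 0.104). Its adjusted p was 0.0324 without KO replicate 8, 0.0164 with the mesenchyme covariate, 0.0116 by DESeq2 and 0.0305 in quality-weighted limma-voom. Akap6 (−1.10, adjusted p = 0.313), Rapgef4, the Epac2 gene (−0.56, adjusted p = 0.265), Crtc3 (0.36, adjusted p = 0.487), Ppargc1a (1.26, adjusted p = 0.414) and Gucy1a3 (1.69, adjusted p = 0.345) had the smallest p of the anchoring proteins, the Epac and Rap list, the CREB-family factors, the immediate targets and the guanylyl cyclases. Their most abundant members Akap9 (−0.01), Pclo (0.01), Ep300 (0.31), Egr1 (0.77) and Npr2 (0.67) were not called either. Without KO replicate 8 the log2 fold changes were −1.16 for Akap6, −0.45 for Rapgef4, 0.25 for Crtc3, 1.47 for Ppargc1a and 0.70 for Gucy1a3. For Akap9, Pclo, Ep300, Egr1 and Npr2 they were then 0.18, 0.27, 0.46, 0.17 and 0.71.

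By edgeR 8 of the 13 lists had no call, and these lists, picked for that, held 96 tested genes. Of the 96, DESeq2 called 5, limma-voom 0 and limma-voom with quality weights 4, where they called 3.68, 1.2 and 3.54% of all genes. At an unadjusted p under 0.05 edgeR had 12 of the 96, 7 of them lower. The share of all genes at that cut was not counted, so nothing is read from these 12. All 11 immediate cyclic AMP targets tested had a positive log2 fold change. Their median was 0.64 with all libraries and 0.13 without KO replicate 8, where 12 were tested, and that of the 6 guanylyl cyclases went from 0.68 to −0.03. The summed mesenchyme and leukocyte markers were highest in that library, and their part in these lists was not tested.

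**Figure D5:**
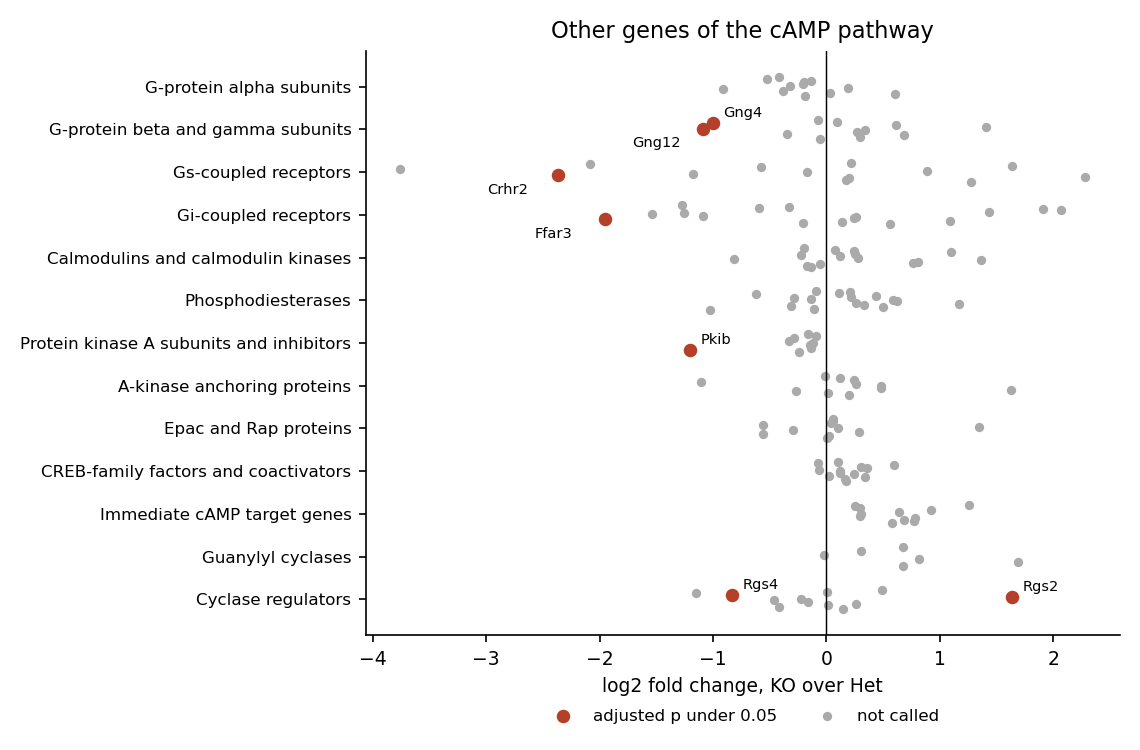
Log2 fold change, KO over Het, of the 158 tested genes of 13 lists of cyclic AMP signalling. Red points were called at an adjusted p under 0.05 and are named. Of these 7, Rgs2 at 1.64 is to the right and the others lie between −2.37 and −0.83.

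The number of pathway genes called by edgeR ran from 0 without Het replicate 13 to 12 without KO replicate 8. The log2 fold changes of the 7 kept their sign with any 1 library left out, from 1.48 to 1.77 for Rgs2, −1.21 to −1.02 for Gng12, −1.14 to −0.89 for Gng4, −2.62 to −2.18 for Crhr2, −2.21 to −1.79 for Ffar3, −1.38 to −1.07 for Pkib and −0.92 to −0.77 for Rgs4. Rgs2 kept its call without any of the other 7 libraries. Gng4, Crhr2 and Pkib kept theirs without KO replicate 8 or 17 alone, Gng12 without KO replicates 8 or 24 or Het replicate 19, and Ffar3 and Rgs4 without KO replicate 8, and each lost it without any 1 of the others, at adjusted p up to 0.152. Scaling by total counts also ended the edgeR call of Rgs4, at an adjusted p of 0.0586.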

How the data were processed

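Counts of reads per gene symbol, whole and not normalized, were deposited in a separate table for each library. The submitters' processing notes name the build mm9 and the tools TopHat2 2.1.0, bcl2fastq 1.8.4, Cufflinks 2.0.2 and DESeq. Neither counter nor annotation nor strand setting is given in the sources used here. From each sample 2.315 ng of RNA was amplified with the NuGEN Ovation V2 kit and sequenced to about 30 M single-end reads of 100 bp, per the labels' protocols, and amplified copies count as reads. The deposited comparison table holds, per the file headers, the authors' mean signal per group (normalized counts), the authors' ratio of KO to Het (fold change), the authors' log2 of it, and the authors' p-values, which were not used. Its group means were reproduced from the counts to a relative deviation of at most 4.92e-15.

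edgeR 4.0.16 (R 4.3.3) kept 14116 genes by filterByExpr (minimum count 10, minimum total 15), scaled by TMM, and compared KO with Het by the quasi-likelihood F test, two-sided, no covariate, Benjamini-Hochberg over all genes tested. The SE of a log2 fold change is its size over the root of F. Log2 CPM used a prior count of 2. The outcome of a run of the fit on simulated data is not given here and lends the calls no support. Alternatives were median-ratio scaling, total counts, no filter, 2 CPM in 4 libraries, DESeq2 1.42.0, limma-voom (limma 3.58.1) without and with quality weights, mesenchyme and Y-linked covariates, and each library left out. Coding length was chosen after seeing the data.

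Members and lists were chosen with earlier results of these data known. The other genes named were, from each list, its called genes (up to 4, smallest p first) or else the 1 with the smallest p, its most abundant gene, and the 4 genes with the highest Pearson r of log2 CPM to Adcy1, the member with the largest fold change, and to Adcy6, the member with the highest mean CPM. One gene that this rule names is not reported here. Acinar, duct, endothelial and Schwann-cell or neuron marker lists were also summed. Over the 8 libraries acinar markers ran from 10029 CPM in Het replicate 7 to 45320 CPM in KO replicate 9. Duct markers ran from 533 to 770 CPM and Schwann-cell or neuron markers from 51.1 to 111 CPM. Endothelial markers summed to 28.8 CPM in KO replicate 8, 28.2 CPM in KO replicate 9 and 8.82 to 19.9 CPM in the others. Replicates carry the numbers of their titles, and no 2 libraries held the same values.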

Additional observations from a re-analysis of the deposited data

Results flagged for a closer look

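Adcy3 in KO replicate 8 stood at 7.94 CPM, and the other 3 KO libraries held 3.23 to 3.43 CPM. Its gap to the nearest of them was 0.958 of the range of the group, above the 0.829 that 4 samples allow. Summed mesenchyme markers were 10403 CPM in that library and 403 to 572 CPM in the other 3, and their part in the value was not tested. Neurod1 in Het replicate 19 stood at 210.5 CPM, and the other 3 Het libraries held 133 to 141 CPM (0.896 of the range). These were 2 of 22 groups of 4 looked at (11 genes in 2 genotypes), and chance gives about 1 in 20.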

How the results depend on the processing

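The log2 fold change of Adcy1 ran from 1.75 to 2.06 over the 17 alternatives, which refit the contrast that the members were chosen on and lend it no support. Genes called over all genes tested numbered 144 in the main analysis, 520 by DESeq2, 500 by quality-weighted limma-voom, 547 with the mesenchyme covariate, 28 with the Y-linked covariate and 29 to 285 with 1 library left out. Pathway genes called numbered 7, and 19, 17, 16 and 0 in the same 4 alternatives and 0 to 12 with 1 library left out. The cause of these moves was not tested, and leaving out a library also leaves fewer samples. No paired analysis was possible because the 2 genotypes share no replicate number.

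Signs turned for 8 of the named genes, none of which was called under any setting. Adcy5 (−0.06) was 0.0059 by total counts, 0.34 by limma-voom, 0.65 with the Y-linked covariate and −0.39 to 0.15 with 1 library left out. Adcy6 (0.06) was −0.0083 by limma-voom with quality weights and −0.061 to 0.18 with 1 library left out. Adcy4 (0.74) was −0.68 by limma-voom, −1.52 with quality weights, −0.54 with the mesenchyme covariate, −1.69 with the Y-linked covariate and −0.94 to 1.69 with 1 library left out. It did not pass the filter of 2 CPM in 4 libraries. Gnb1 was 0.0058 by total counts, 0.034 with quality weights and −0.10 to 0.0062 with 1 library left out. Adra2a was 0.045 with quality weights. Akap9 was 0.047 by total counts, 0.0076 with quality weights, 0.13 with the mesenchyme covariate, 0.055 with the Y-linked covariate and −0.18 to 0.18 with 1 library left out. Pclo was −0.0053 with no filter, −0.037 by limma-voom and −0.19 to 0.29 with 1 library left out. Cap1 was −0.052 with quality weights and −0.030 to 0.22 with 1 library left out. The cause was not tested. Some values rest on few reads: in its lowest library Adcy3 had 6 reads, Adcy8 had 5, and Adcy4 and Adcy10 had 0.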
